A study of Mus musculus with 12 samples.

Results

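The intervals described here carried acetylation of lysine 27 of histone H3 (H3K27ac) and trimethylation of lysine 4 (H3K4me3) at both oxygen levels of mesenchymal stem cells (MSCs), and were narrower than 5000 bp. They were selected on the measured peak calls alone: an interval was a member when the same chromosome, start and end stood in all 4 peak lists and its width was under that limit, with the score left out. There were 6571 members among the 22555 distinct intervals of the 4 lists. Chromatin immunoprecipitation followed by sequencing had been run on MSCs from the bone of wild-type male C57BL/6N mice aged 3 to 5 months, cultured at 2% oxygen (hypoxia) or at 21% oxygen (normoxia), each with 5% CO2, with a sort by flow cytometry on day 12. According to the study's methods, the cells were isolated and expanded in hypoxia up to the sort, and the sorted cells were then kept in hypoxia or placed in normoxia for a week, so that both groups had been in hypoxia first. The sort kept cells negative for the blood cell markers CD45 and Ter-119 and positive for Sca-1 and CD140a. The 12 libraries formed 6 groups of 2, one group per mark and oxygen level and an input group (chromatin without immunoprecipitation) at each oxygen level. Each list pooled the 2 libraries of its group, and no list of the inputs was analysed here. No interval has a replicate check and the read depth is unknown, so every value below describes these 4 lists and no test of the oxygen levels was possible. Ranges given after a share are Wilson 95% confidence intervals, and those after a difference of shares are Newcombe 95% intervals. Both cover counting error alone, and neighbours along a chromosome are not independent.

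H3K4me3 is deposited around the transcription starts of genes, mostly where the DNA is rich in CpG dinucleotides, and can be present at genes that are transcribed little. H3K27ac is added by the acetyltransferases p300 and CBP, is found at promoters and enhancers in use, and is removed by histone deacetylases. The acetyl group comes from acetyl-CoA, which in the nucleus and cytosol derives largely from citrate exported from mitochondria and split by ATP citrate lyase. A promoter with both marks is usually read as active, but no RNA was measured in these lists, and activity was not assessed here.

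The sequence before the start is shown for 7 members, each 200 bases long and ending at the base before the start. They were chosen after the values were seen, to show the short motifs counted below in genes that supply acetyl-CoA (Slc25a1, the mitochondrial citrate carrier, and Acly, ATP citrate lyase), in glycolysis (Ldha and Pgk1), in deacetylation (Hdac1), in the ubiquitin ligase that targets hypoxia-inducible factor (HIF) (Elob) and in the ribosome (Rpl14). The sequences are from the RefSeq assembly GRCm38.p6 (mm10), are printed 5′ to 3′ along the gene and overlap no annotated exon. Capitals mark any of 12 motifs on either strand, named for the factors known to bind them. The CCAAT box was searched by the letters of its name, and the TATA box was searched as TATAAA, the GC box of the Sp1 family as GGGCGG, the ETS motif as CCGGAA, the NRF1 motif as GCGCATGC, the YY1 motif as ATGGCGG and the cyclic AMP response element (CRE) as TGACGTCA. The E-box was searched as CACGTG, the HIF core as ACGTG, the motif of AP-1 factors as TGACTCA, that of TEAD factors as CATTCC and that of RUNX factors as TGTGGT. The HIF core lies inside the E-box, so that an E-box counts for both.
Slc25a1 (chr16:17928220-17928419, minus strand): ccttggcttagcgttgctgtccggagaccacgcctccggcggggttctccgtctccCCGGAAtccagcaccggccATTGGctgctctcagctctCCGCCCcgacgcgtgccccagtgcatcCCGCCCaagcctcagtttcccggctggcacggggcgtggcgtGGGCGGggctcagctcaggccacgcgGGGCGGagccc
Acly (chr11:100528001-100528200, minus strand): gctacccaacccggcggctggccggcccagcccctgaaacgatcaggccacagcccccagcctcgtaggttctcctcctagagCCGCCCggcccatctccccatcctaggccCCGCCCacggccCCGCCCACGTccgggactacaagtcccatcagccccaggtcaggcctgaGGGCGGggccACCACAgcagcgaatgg
Ldha (chr7:46845639-46845838, plus strand): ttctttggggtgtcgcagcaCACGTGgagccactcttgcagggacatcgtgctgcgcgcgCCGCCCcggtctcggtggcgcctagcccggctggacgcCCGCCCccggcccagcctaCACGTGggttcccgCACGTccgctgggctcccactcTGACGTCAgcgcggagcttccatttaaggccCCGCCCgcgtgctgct
Pgk1 (chrX:106186900-106187099, plus strand): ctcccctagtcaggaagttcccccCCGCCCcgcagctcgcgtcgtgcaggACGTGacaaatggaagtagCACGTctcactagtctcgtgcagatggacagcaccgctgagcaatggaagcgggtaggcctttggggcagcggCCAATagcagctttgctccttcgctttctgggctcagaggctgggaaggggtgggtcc
Hdac1 (chr4:129542714-129542913, minus strand): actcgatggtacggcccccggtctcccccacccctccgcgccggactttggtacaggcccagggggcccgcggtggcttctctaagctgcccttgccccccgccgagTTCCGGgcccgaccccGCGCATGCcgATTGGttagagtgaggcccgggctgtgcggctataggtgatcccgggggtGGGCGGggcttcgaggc
Elob (chr17:23829137-23829336, minus strand): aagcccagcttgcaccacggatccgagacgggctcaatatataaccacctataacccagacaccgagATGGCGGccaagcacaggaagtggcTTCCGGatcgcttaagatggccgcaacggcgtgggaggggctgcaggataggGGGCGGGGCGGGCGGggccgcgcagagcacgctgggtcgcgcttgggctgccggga
Rpl14 (chr9:120571244-120571443, plus strand): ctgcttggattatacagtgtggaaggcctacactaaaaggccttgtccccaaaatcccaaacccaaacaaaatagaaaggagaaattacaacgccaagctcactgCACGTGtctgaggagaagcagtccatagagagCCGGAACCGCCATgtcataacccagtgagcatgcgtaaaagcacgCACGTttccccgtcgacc
A match of letters is a description and not a bound site. Slc25a1 held an ETS motif whose first letter lay 144 bases before the start, a reversed CCAAT box at 125 bases and 4 GC boxes. Acly held 4 GC boxes, 1 of them running into a HIF core at 71 bases, and no ETS motif. Ldha held E-boxes at 180 and 83 bases, a further HIF core at 69 bases and a CRE at 47 bases, while Pgk1 held HIF cores at 150 and 131 bases. In Hdac1 an ETS motif at 93 bases, an NRF1 motif at 77 bases and a CCAAT box at 67 bases followed each other closely. Elob had a YY1 motif at 133 bases and an ETS motif at 108 bases. In Rpl14 an ETS motif at 63 bases ran directly into a YY1 motif at 57 bases.

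The members made up 43.2% and 44.3% of the H3K27ac intervals at hypoxia and normoxia, and 45.0% of the H3K4me3 intervals at each oxygen level. They held 21.5% and 22.0% of the H3K27ac bases but 48.9% of the H3K4me3 bases in each list, and 4180 of the intervals with H3K27ac alone at both oxygen levels were 5000 bp or wider against 3158 under it. Members covered 19.3 Mb with a median width of 3000 bp (quartiles 2500 and 3500 bp). At the width limit, the 324 members of 4500 bp had median H3K27ac scores of 139 at hypoxia and 134 at normoxia, and the 189 intervals of 5000 bp just outside it had 141 and 133. The score stands beside each interval in the lists without a stated definition. Its values ran from 50 to 160, or were 1000, here called the top score. By density, with chromosome Y and its 1 member left out, members ranged from 0.754 per Mb on chromosome X to 4.35 per Mb on chromosome 11.

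Nearly all members were promoters of protein-coding genes. A coding start of the GENCODE M21 basic annotation lay inside 6104 of 6571 (92.9%, 92.2 to 93.5), against 94.9% of the 705 wider intervals with both marks, 76.4% of the 199 with H3K4me3 at both oxygen levels and H3K27ac at only one, 68.0% of the 7021 narrow intervals with H3K4me3 alone and 3.26% of the 3158 narrow intervals with H3K27ac alone. Some intervals with H3K4me3 alone directly bordered a member, as was so for 1218 members, and the start can then lie in the member. How much of the difference comes from such segments was not tested. Among members, the share with a coding start was higher in wider ones, from 71.4% of the 98 members of 1500 bp to 97.5% of those of 4500 bp. Of the 467 members without a coding start, 132 held the start of a long non-coding RNA and 296 held no start of any gene in the basic annotation. The name promoter thus rests on that annotation for most members and not for these 296. A single coding gene started in 5278 members and 2 genes in 807.

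Pairs of genes transcribed away from each other were frequent. Divergent coding starts were found in 659 of the 6104 members with a coding start (10.8%), with a median of 132 bp between them. The share was 4.61% in H3K4me3-only intervals, a difference of 6.19 percentage points (5.2 to 7.17), and 16.4% in the wider both-mark intervals, which exceeded the members by 5.65 points (2.91 to 8.74).

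Members lay off centre around the start. Over the 4905 that held the main start of a single coding gene, the one shared by most of its coding transcripts, the median member reached 1051 bp upstream and 1766 bp downstream, and 87.7% (86.7 to 88.6) reached farther downstream. Intervals with H3K4me3 alone were narrower on both sides, with medians of 909 bp upstream and 1433 bp downstream, and reached farther downstream in 86.0%, which was 1.64 points fewer than the members (0.244 to 3.05). The wider both-mark intervals differed mainly downstream, where their median reach was 4121.5 bp against 1522.5 bp upstream.

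**Figure D1:**
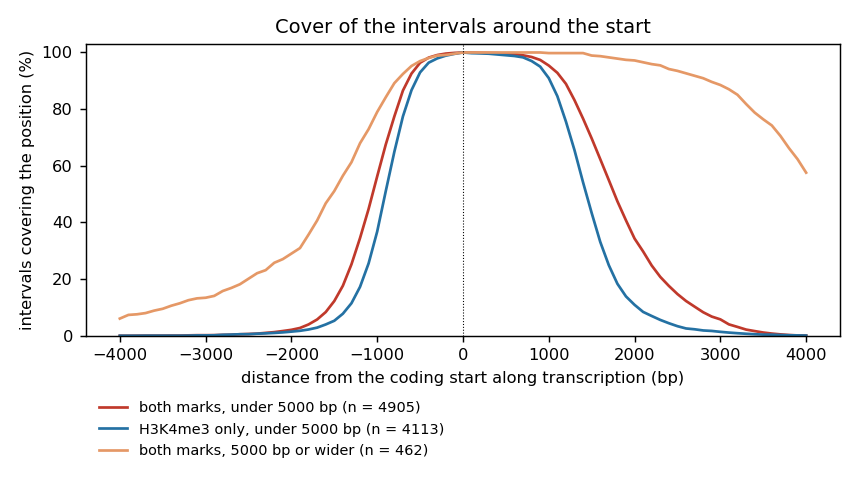
Share of intervals (y axis, percent) that cover each position around the coding start (x axis, bp along the direction of transcription, 0 at the start), for members (n = 4905), H3K4me3-only intervals under 5000 bp (n = 4113) and both-mark intervals of 5000 bp or wider (n = 462). The curve of the members falls off nearer to the start upstream, where the median reach was 1051 bp, than downstream, where it was 1766 bp.

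By gene, 6850 of 21827 protein-coding symbols (31.4%, 30.8 to 32.0) had a start in a member, 3.78% had one in a wider both-mark interval and not in a member, and 22.5% had H3K4me3 alone. The 31.4% includes the 40.6% of coding genes that had no interval at a start. Among the 12740 coding genes with H3K4me3 at a start, 53.8% started in a member. Of the general machinery of the cell, cytosolic ribosomal (87.5% on that base), proteasome (71.7%) and MAP kinase cascade genes (71.1%) stood above both values. Of the cytosolic ribosomal protein genes, 70 of 83 (84.3%, 75 to 90.6) started in a member, as did 33 of 48 proteasome subunit genes (68.8%), which build the protease that degrades ubiquitin-tagged proteins. Of the MAP kinase cascade, 27 of 38 genes did (71.1%), among them the kinase genes Braf, Map2k1, Map2k2 and Mapk3. The ribosome of the mitochondrion was different: 31 of 78 genes (39.7%, 29.6 to 50.8) started in a member and 44 (56.4%) in an interval with H3K4me3 alone. Respiratory chain genes stood between, with 29 of 59 in members (49.2%, 36.8 to 61.6) and 25 with H3K4me3 alone. Among genes with H3K4me3, members were 39.7% of mitochondrial ribosomal genes and 29 of 58 respiratory chain genes. Both shares were below the 53.8% of all coding genes on that base.

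Genes of acetyl-CoA supply and of histone acetylation were mostly members. In the first list 17 of 23 genes (73.9%, 53.5 to 87.5) started in a member, including Slc25a1, Acly, the citrate synthase gene Cs, the fatty acid synthase gene Fasn, the pyruvate dehydrogenase genes Pdha1, Pdhb, Dlat and Dld, and the pyruvate carrier genes Mpc1 and Mpc2. Outside the members, the acetate-using enzyme Acss2 had a wider both-mark interval of 6500 bp, and Acss1, Pdk2, Pdk4 and Pdp2 had H3K4me3 alone. Acaca had H3K27ac alone over 8500 bp. In the second list 21 of 32 genes (65.6%, 48.3 to 79.6) started in a member, among them the acetyltransferase genes Ep300 and Crebbp and the deacetylase genes Hdac1 and Hdac2.

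Of the core of oxygen sensing, 8 of 15 genes started in members (53.3%, 30.1 to 75.2, an interval that includes the share of all coding genes): Hif1a, the oxygen-labile subunit of HIF-1, its partner Arnt, the prolyl hydroxylase gene Egln1, and Vhl, Elob, Eloc, Cul2 and Rbx1, which together encode the ligase that marks HIF for degradation. Epas1, which encodes HIF-2α, had H3K4me3 alone, as had Egln3 and Hif1an, and Hif3a had no interval at its start. HIF target genes were split by width: 15 of 30 started in members, such as Ddit4, Pdk1, P4ha1 and Ero1l, and 8 (26.7%) in wider both-mark intervals, such as Vegfa, Slc2a1 and Bnip3. Glycolysis had 9 of 21 genes in members, including Hk2, Pgk1 and Ldha, and 5 in wider intervals, including Gapdh and Pkm.

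Genes that define lineages stood mostly elsewhere. Of 28 stromal identity genes, 14 had a wider both-mark interval, such as Pdgfra (9000 bp, the gene of CD140a), Prrx1 and Twist1, and only 5 were members: Cd44, Itgb1, Vcam1, Cxcl12 and S100a6. Ly6a, which encodes Sca-1, had H3K27ac alone over 10500 bp. A further 7 stromal identity genes had H3K4me3 alone: Eng, Nt5e, Lepr, Kitl, Nes, Grem1 and Twist2. Thy1 had H3K4me3 at both oxygen levels and H3K27ac at hypoxia only. Immediate-early genes were divided evenly, with 11 of 23 in members (Fos and Egr1 among them) and 11 in wider intervals. Members held 7 of 30 osteogenic, 9 of 39 Wnt pathway, 2 of 22 adipogenic, 2 of 18 chondrogenic and 8 of 39 Hox genes, each a smaller share than the 31.4% of all coding genes, although the counting interval stayed below that value for the adipogenic list alone (9.09%, 2.53 to 27.8). As a check on other cell types, members held 0 of 23 haematopoietic genes (upper bound 14.3%), 0 of 14 endothelial genes (21.5%), 0 of 18 neuronal genes (17.6%) and 0 of 1091 olfactory receptor genes (0.351%). These lists were not free of intervals. H3K4me3 alone stood at 5 haematopoietic, 6 endothelial and 9 neuronal genes. Another type of interval held the start of 3 haematopoietic genes (13.0%, against 1.03% of all coding genes). These were Csf1r, Cd68 and Lyl1, each with H3K27ac alone at both oxygen levels. Zinc finger genes, a large family of DNA-binding proteins, were members in 159 of 365 cases (43.6%). Among genes with H3K4me3 at a start, members were 51.3% of zinc finger and 47.4% of glycolysis genes, beside 53.8% of all coding genes. On that base they were 57.1% of the oxygen-sensing core and 55.6% of HIF targets. For acetyl-CoA supply and histone acetylation the shares were 77.3% and 67.7%.

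**Figure D2:**
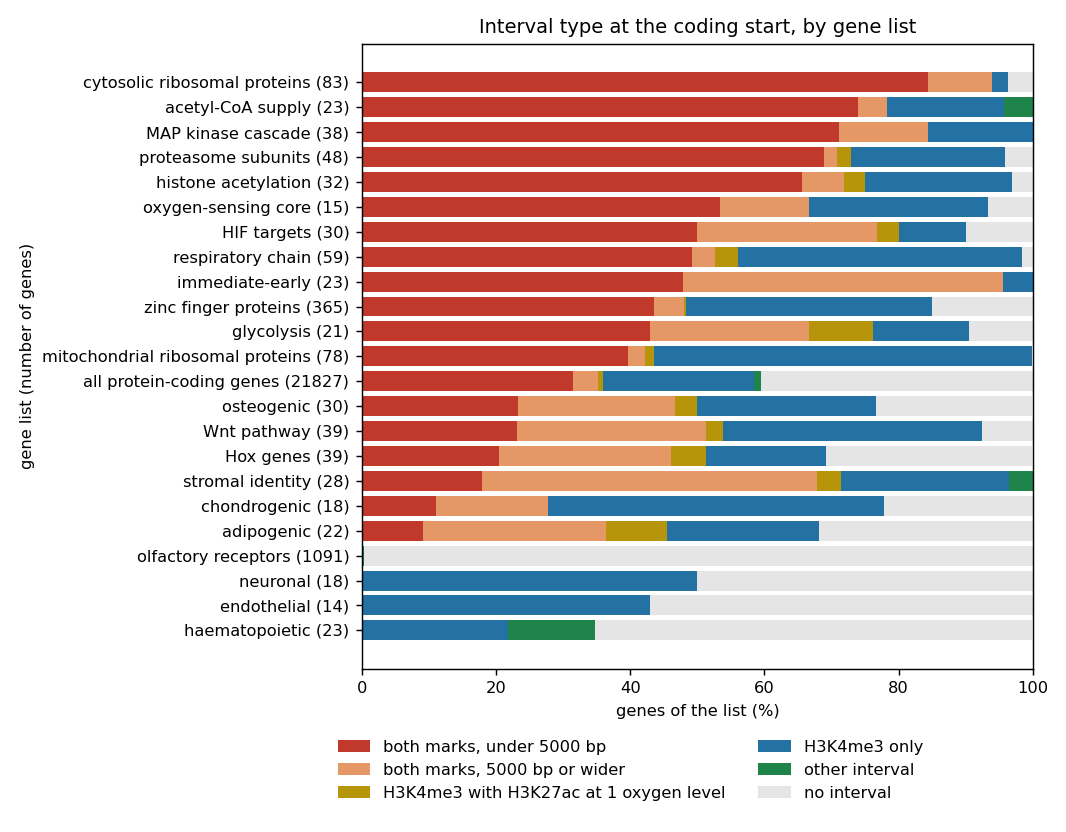
Share of the genes of each list (x axis, percent; list size in parentheses) by the interval that held a coding start: a member (both marks, under 5000 bp), a wider both-mark interval, H3K4me3 with H3K27ac at 1 oxygen level, H3K4me3 alone, another interval or none. Cytosolic ribosomal proteins are at the top with 84.3% in members and the 4 lists of other cell types at the bottom have 0.0%, while stromal identity genes are most often in wider intervals (14 of 28).

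The promoters of members were rich in CpG. For 1 start per gene, the promoter class was set from 500-base windows between 900 bases before and 400 after the start, as high where a window had an observed-to-expected CpG ratio over 0.75 and over 55% GC, and as low where no window reached a ratio of 0.48. Of 6550 member promoters 82.5% (81.5 to 83.4) were of high CpG content and 2.79% of low. Promoters with H3K4me3 alone were of high content in 64.5%, which was 18 points fewer (16.3 to 19.6), and wider both-mark promoters in 71.2%, 11.3 points fewer (8.14 to 14.7). Among all coding promoters 43.6% were of high content, and among those without an interval 4.11%.

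Of the 12 motifs, ETS differed most between member and H3K4me3-only promoters. In the window from 250 bases before to 50 after the start it was found in 33.1% of member promoters (31.9 to 34.2), 22.3% of H3K4me3-only promoters, 20.6% of wider both-mark promoters and 18% of all coding promoters. The difference between members and H3K4me3-only promoters was 10.7 points (9.06 to 12.4), and within promoters of high CpG content it was 10.5 points (8.51 to 12.5). Factors of the ETS family bind this core at many housekeeping promoters. Among member promoters it was held by 20 of 31 mitochondrial ribosomal genes (64.5%), 15 of 32 proteasome genes (46.9%) and 30 of 68 cytosolic ribosomal genes (44.1%), but by 5 of 26 MAP kinase cascade genes (19.2%).

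Other motifs differed less. The HIF core was found in 29.2% of member, 23.1% of H3K4me3-only and 20.4% of all promoters (members minus H3K4me3-only 6.07 points, 4.43 to 7.7). Within high CpG content it was found in 30.3%, 24.2% and 28.0%, and in 30.5% of promoters without an interval. Members were thus above H3K4me3-only promoters there (6.13 points, 4.15 to 8.07) but not above promoters without an interval. The E-box that contains the HIF core was found in 10.7%, 10.2% and 7.8% and differed by 0.559 points (-0.599 to 1.7). The YY1 motif was found in 9.71%, 6.2% and 5.06% (3.51 points, 2.5 to 4.5), the CRE in 4.41%, 2.55% and 2.48% (1.86 points, 1.18 to 2.53) and the NRF1 motif in 6.26%, 4.53% and 3.76% (1.73 points, 0.886 to 2.56). The GC box, the commonest at 69.6% of member and 44.8% of all promoters, was 3.61 points above H3K4me3-only promoters (1.86 to 5.37) but within high CpG content the difference was 0.201 points (-1.73 to 2.17). CCAAT boxes were found in 37.9% of member, 38.3% of H3K4me3-only and 38.7% of all promoters. AP-1 motifs were found in 2.89% of member, 3.09% of H3K4me3-only and 4.47% of all promoters, and members minus H3K4me3-only was -0.203 points (-0.86 to 0.429). RUNX motifs were found in 10.9%, 11.1% and 15%, a difference of -0.226 points (-1.41 to 0.941), and within high CpG content in 10.5% of member and 9.97% of all promoters. TEAD motifs were found in 10.6%, 12.1% and 13.2%, a difference of -1.56 points (-2.77 to -0.372).

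TATA boxes were scarce. The TATA motif anywhere in the window, on either strand, was found in 5.44% of member, 6.78% of H3K4me3-only and 12.5% of all promoters. On the gene's strand and wholly between 40 and 16 bases before the start, the place where it directs initiation, it was found in 32 of 6550 member promoters (0.489%, 0.346 to 0.689) against 2.43% of all promoters. The share was 0.879% of H3K4me3-only promoters, 0.391 points above members (0.0855 to 0.733), and 2.62% of wider both-mark promoters, 2.13 points above them (1.21 to 3.49).

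**Figure D3:**
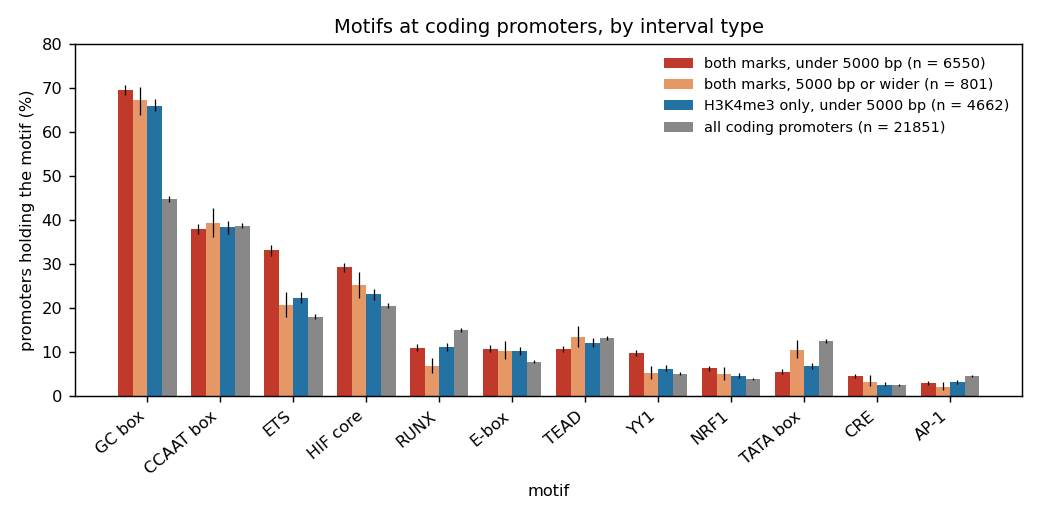
Share of coding promoters (y axis, percent) that hold each of 12 motifs on either strand within 250 bases before to 50 after the start, by interval type; bars start at 0 and error bars are 95% Wilson intervals. Members (n = 6550) stand above the other types for ETS (33.1%), HIF core (29.2%) and YY1 (9.71%).

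The surroundings of the members were compared next. Since the lists share 1 set of boundaries, a touching interval is the place where the call of a mark starts or ends. No other interval touched 3860 members (58.7%, 57.5 to 59.9), against 77.7% of H3K4me3-only intervals and 37.4% of wider both-mark intervals. An interval with H3K27ac alone touched 1443 members (22.0%, 21.0 to 23.0), so that acetylation ran on past H3K4me3, and did so alike upstream (12.7%) and downstream (12.8%) of the 5339 members whose coding starts lay on 1 strand. Without the lowest-scoring 25% of each list this share was 13.4%. An interval with H3K4me3 alone touched 1218 members (18.5%), and here the sides differed: 5.41% had it upstream and 12.8% downstream. Of H3K4me3-only intervals themselves, 1.68% touched H3K27ac-only sequence, 20.3 points fewer than members (19.2 to 21.3). Members were selected for carrying H3K27ac and these intervals lack it, so this difference follows at least in part from the selection.

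Sequence with H3K27ac at a single oxygen level rarely bordered members. It touched 188 of them (2.86%, 2.48 to 3.29), in 143 cases called at hypoxia and in 45 at normoxia, or 76.1% at hypoxia. Over all intervals with H3K27ac at a single oxygen level, 589 were called at hypoxia and 218 at normoxia (73.0% at hypoxia), near the split at members. Without the lowest-scoring 25% of each list, such sequence touched 15 of 4802 members (0.312%). The wider both-mark intervals touched such sequence in 7.23%. Among hypoxia-only neighbours of members with a coding start, the widest, 28000 bp beside the start of Wasf2, an actin regulator, scored 67, and that beside Cxcl12, a chemokine of bone marrow stroma, was 9500 bp wide and scored 52. Aldoa, a glycolytic enzyme, had one of 6500 bp with a score of 78. Among normoxia-only neighbours the widest, 24000 bp beside the member of Bag6, scored 51. The one beside the member of Hif1a was 2000 bp wide and scored 90.

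H3K4me3 scores could not be compared between oxygen levels: they were identical at hypoxia and normoxia in all 6571 members and in all 14600 intervals that the 2 lists share. Members with an H3K4me3 score lower at normoxia thus numbered 0, as in the background (0.0%), and the comparison carries no information. The median was 130 and 16.7% had the top score of 1000.

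H3K27ac scores were identical in the 2 lists in 3738 of 6571 members (56.9%), against 43.6% of all 14614 intervals in both lists. Of these, 1755 had the top score in both lists, and among the 4276 members below it in both lists 1983 were identical (46.4%, against 34.4% of all such intervals). The score was lower at normoxia by at least 10 in 1505 members (22.9%, 21.9 to 23.9), which was near the background of 22.0% over all intervals in both H3K27ac lists and is thus not particular to members. It was higher by at least 10 in 179 (2.72%, 2.36 to 3.15), below the background of 6.84%. Medians were 131 at hypoxia and 127 at normoxia, and the top score stood in 34.0% and 27.6%. The score went from the top at hypoxia to below it at normoxia in 480 members and the other way in 60. On each of the 20 chromosomes compared, Y left out, more members had a lower than a higher score, and the share with a lower score ran from 16.8% on chromosome 10 to 30.1% on chromosome 7.

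Higher scores at normoxia were scarcer in both-mark intervals than in H3K27ac-only ones. The share was 2.72% in members and 0.851% in wider both-mark intervals, which was 1.87 points less (0.814 to 2.5). Of the members that differed by at least 10, 89.4% were lower at normoxia, against 63.8% of narrow H3K27ac-only intervals (difference 25.6 points, 22.0 to 29.2) and 67.3% of wide ones (22.1 points, 19.3 to 24.8), but 95.2% of wider both-mark intervals. The types differ in their scores, and an interval at the top cannot go higher, so they were also compared within ranges of the hypoxia score. At the other end no score lay under 50. An interval near 50 thus could not be lower by 10 and stay in both lists, which limits the lower shares in the lowest range. Intervals that lost the H3K27ac call are not counted: with H3K4me3 at both oxygen levels, 176 had H3K27ac at hypoxia alone and 23 at normoxia alone. At hypoxia scores from 50 to 74, 6.99% of members were lower against 4.07% and 6.07% of narrow and wide H3K27ac-only intervals, and from 75 to 99, 29.7% against 22.4% and 26.9%. From 100 to 124, 10.1% of members were higher at normoxia against 17.1% and 21.1% of narrow and wide H3K27ac-only intervals, and 41.0% of members were lower against 36.4% and 41.8%. From 125 to 160, 21.1% of members were lower against 28.2% and 33.0%, and among those at the top score 21.5% against 34.9% and 33.3%. From 125 on, members were thus lower less often than both types of H3K27ac-only intervals. In the ranges under 125 their share was above that of the narrow type and nearer to that of the wide type. No counting interval was computed for these differences. In each range below the top fewer members were higher.

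**Figure D4:**
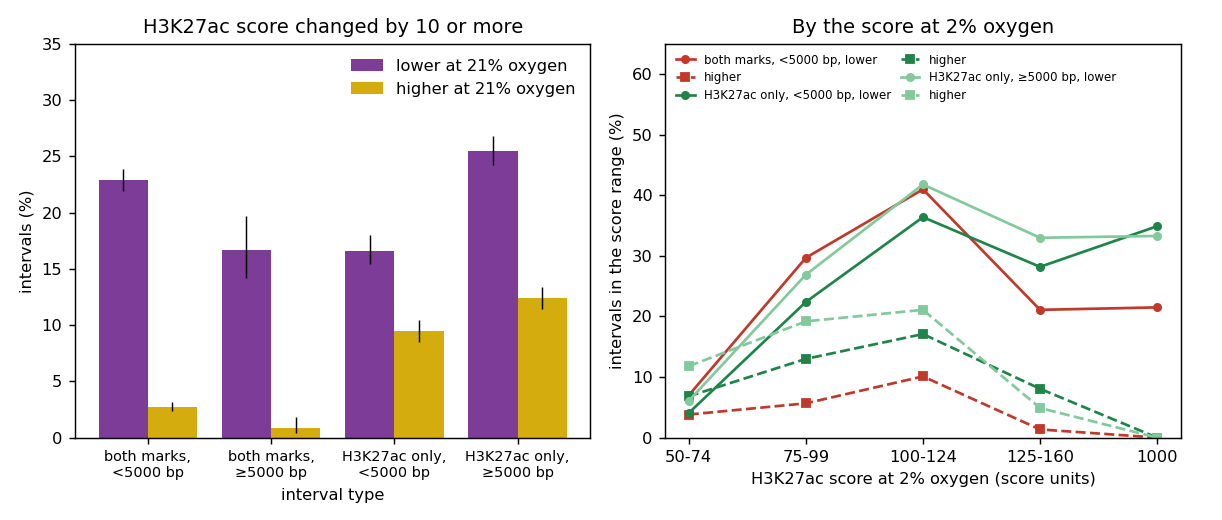
Left, share of intervals (y axis, percent) with an H3K27ac score lower or higher by at least 10 at 21% than at 2% oxygen, by interval type, with 95% Wilson intervals; right, the same shares by the score at 2% oxygen (x axis, score units). Members had a lower score in 22.9% and a higher one in 2.72%, and in the right panel their dashed line of higher scores lies below those of H3K27ac-only intervals in each range under the top score.

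Differences in both directions were more frequent at lower CpG content of the promoter. The share with a lower score was 20.7% of high, 28.1% of intermediate and 36.6% of low content, the last 15.9 points above the first (9.15 to 23.1) and the intermediate class 7.35 points above it (4.39 to 10.5). A higher score was found in 2.24%, 2.8% and 6.56%. Within hypoxia scores of 100 to 160 the shares with a lower score were 23.6% (21.9 to 25.4), 36.4% (31.5 to 41.7) and 43.7% (32.7 to 55.2). Among scores of 50 to 99 they were 18.4% (16.2 to 20.8), 20.2% (16.3 to 24.7) and 29.2% (19.6 to 41.2), with overlapping intervals. Members near 50, the lowest score, could not be lower by the step and stay in both lists, which limits these shares.

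**Figure D5:**
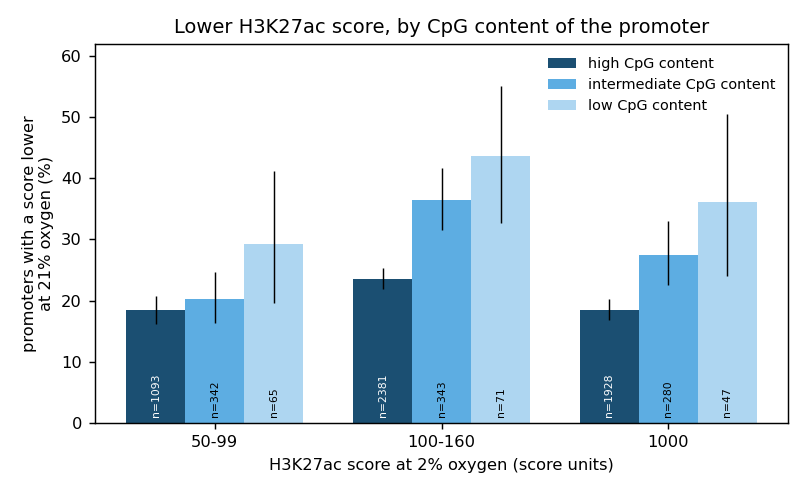
Share of member promoters (y axis, percent) with an H3K27ac score lower by at least 10 at 21% oxygen, by the score at 2% oxygen (x axis, score units) and by CpG class, with 95% Wilson intervals and the number of promoters in each bar. In each score range the share goes up from high to low CpG content, from 23.6% to 43.7% at scores of 100 to 160.

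Neighbours went with the score as well. Among the 143 members that touched hypoxia-only H3K27ac, 39.9% had a lower score at normoxia and 2.1% a higher one. Of the 45 that touched normoxia-only H3K27ac, 7 were lower and 9 higher. Members with no touching interval were lower in 22.0%. The calls of touching intervals come from the same libraries and the same joint peak calling, so these values are not independent.

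The 10 largest differences in each direction were taken from the 3967 members with a coding start and scores below the top in both lists. The Spast interval, at the gene of the microtubule-severing protein spastin, scored 151 at hypoxia and 64 at normoxia. The Dvl1 interval, at the gene of a Wnt signal transducer, scored 160 and 77, and that of Dact1, which binds such transducers, 132 and 50. Nog, which encodes the BMP antagonist noggin, went from 132 to 60, and Echs1, an enzyme of mitochondrial fatty acid oxidation, from 147 to 72. The other members among the 10 with the lowest normoxia scores relative to hypoxia were Ppdpf (145 and 65), Dennd6b (144 and 65), Tbkbp1 (134 and 59), Tbc1d2b (128 and 54) and Golga1 (127 and 54). None of the 10 touched an interval with H3K27ac at a single oxygen level, but only 2.86% of all members did, so this is not particular to them.

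Differences in the other direction were smaller. The largest was at Sec13, which encodes a coat protein of vesicles leaving the endoplasmic reticulum, with 58 at hypoxia and 125 at normoxia. The interval of 1700030J22Rik had 83 and 136, the one shared by Acyp1 and Zc2hc1c 69 and 112, and that of Lrrc4c, a synaptic adhesion gene, 53 and 96. Maff, a small MAF transcription factor gene, had 99 and 136. The other 5 of these 10 were Golga7 (91 and 129), Coro1c (84 and 121), Nav2 (79 and 113), Tspan31 (104 and 137) and Gpatch8 (104 and 136). The interval of Acyp1 and Zc2hc1c touched one with H3K27ac at normoxia only, and that of Maff touched one with H3K27ac at hypoxia only.

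Acetyl-CoA supply held several members with a lower normoxia score. It was lower by at least 10 at 6 of 17 genes (35.3%) and higher at 0, beside 22.6% lower and 2.51% higher over all coding genes in members. A share of 17 genes is imprecise, and whether it differs from that of all coding genes was not tested. Slc25a1 scored 118 at hypoxia and 71 at normoxia, and Acly 91 and 56. Both proteins lie on the path from mitochondrial citrate to acetyl-CoA outside the mitochondrion, and Fasn, which spends that acetyl-CoA on fatty acids, scored 130 and 97. The study reported Slc25a1 expression and the levels of both proteins as similar in hypoxia and normoxia, and FASN protein as lower in normoxia. Whether the scores go with these levels was not tested. Idh1, the cytosolic isocitrate dehydrogenase, scored 133 and 110. Dlat and Idh2 had the top score at hypoxia, and 116 and 121 at normoxia. Cs scored 99 and 90, short of the step of 10, and Pdha1, Dld, Mpc1 and Mpc2 had identical scores in the 2 lists.

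The genes that write, read and remove acetylation were lower at 4 of 21 (19.0%), near the 22.6% of all coding genes in members, and higher at 0. Ep300 scored 138 and Crebbp 1000 at each oxygen level, and Hdac1 (79), Hdac2 (128), Kat5 (131) and Kat7 (134) were also identical. Of the 4 lower ones, the acetyltransferase gene Kat6b went from the top score to 130 and Brd3, whose product binds acetylated histones, from the top score to 101, while Hdac5 scored 120 and 90 and Sirt6, a deacetylase of the sirtuin family, 125 and 99.

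Identical scores were found at 5 of 8 core oxygen-sensing genes (62.5%) and at 8 of 15 HIF targets (53.3%), near the 56.9% of all members. Of the core genes, Vhl was lower at normoxia (129 and 87) and Hif1a higher (85 and 103), and Egln1, Arnt, Cul2, Eloc and Rbx1 were identical. Of the 15 HIF targets 2 were lower and 0 higher: Ankrd37 scored 122 and 69, and Hmox1, the haem oxygenase gene, 106 and 72. Ddit4, Pdk1, Kdm3a, P4ha2, Bnip3l and Ero1l had equal scores, and P4ha1 (130 and 127) was within the step of 10. In glycolysis, 1 of 9 members was lower and 0 higher: Slc16a1 went from the top score to 115. Ldha had the top score in both lists and Pgk1 scored 96 and 94. Among the stromal members Cd44 went from the top score to 132 and Vcam1 from 82 to 53, while Cxcl12 scored 131 and 127.

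Over all coding genes in members the score was lower at normoxia in 22.6% and higher in 172 of 6850 (2.51%). Among the families of the general machinery, respiratory chain members had a lower score at normoxia in 12 of 29 and a higher one in 2, and cytosolic ribosomal members in 21 and 4 of 70. Proteasome members were lower in 4 and higher in 3 of 33, and zinc finger members in 32 and 2 of 159. Mitochondrial ribosomal members were lower in 7 and higher in 1 of 31. The shares with a lower score were thus near that of all coding genes for zinc finger (20.1%) and mitochondrial ribosomal members (22.6%). Examples from the respiratory chain, named after their values were seen, were Uqcr11 (128 and 88) and Ndufa7 (92 and 60), subunits of complexes III and I, while Cox5a and Ndufs1 had the top score in both lists. The 4 ribosomal genes with a higher score were Rpl14, at 110 and the top score, Rps21 (89 and 105), Rps3 (105 and 117) and Rps7 (93 and 105). Median hypoxia scores were 133 for cytosolic ribosomal and 117 for respiratory chain members beside 131 for all coding genes in members.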

How the data were processed

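Per the labels and the methods of the study, reads of the 12 libraries had been aligned by the authors to mm10 (bowtie2) and cleared of duplicates (Picard MarkDuplicates). Peak calling used chromstaR, set to compare the oxygen levels, on steps of 500 bp. The authors deposited 4 pooled lists, 1 per mark and oxygen level. The score column of the deposited lists has no stated definition and was used only to describe. Read counts, inputs and single libraries were not analysed here.

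The lists were joined on identical chromosome, start and end; 0 intervals overlapped in part and 0 ran past a chromosome end, so that the 4 lists share 1 set of boundaries. Starts came from the GENCODE M21 basic annotation (GRCm38) and sequence from RefSeq GRCm38.p6, the same build. For promoter classes and motifs, 1 start per gene was used, the one shared by most coding transcripts. An interval touched another where their edges met. A score counted as lower or higher when it differed by at least 10.

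The members and the 22 gene lists were chosen with earlier results of these data known. All 374 symbols of the 15 symbol lists matched, 1 through an older symbol, and 7 lists were families by name pattern. Genes named were the 10 largest differences in each direction below the top score and the genes of 5 lists (stromal identity, oxygen-sensing core, HIF targets, acetyl-CoA supply and histone acetylation), and others are examples chosen after their values were seen. Values were computed with Python 3.11.15, pandas 2.3.3, numpy 2.4.6 and scipy 1.17.1, and the functions were tested on simulated lists. Alternatives were no width limit, the lowest-scoring 25% of each list left out, autosomes only, 50% reciprocal overlap, distances of 1000 bp, all annotated genes, a score step of 20, leaving out top scores and a motif window of 500 bases before to 100 after the start.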

Additional observations from a re-analysis of the deposited data

How the results depend on the processing

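Of 36 alternatives over 9 results, 22 stayed within the main 95% interval, or within 1.5 times for the number of members, which was 4802 without the lowest-scoring 25% of each list, 6441 on autosomes, 7276 without a width limit and 6571 by 50% reciprocal overlap. Of these, 5 could not have moved, 4 because the H3K4me3 scores were identical in both lists and 1 because no intervals overlapped in part, which leaves 17 of 31. The other 14 moved, and beyond their own construction the cause was not tested. Without the lowest-scoring 25%, the share with a coding start was 94.9%, coding genes with a start in a member 23.6%, promoters of high CpG content 85.1%, members touching H3K27ac-only sequence 13.4% and those touching condition-specific H3K27ac 0.312%. Without a width limit, coding genes in members were 35.2%, high CpG content 81.2%, members touching H3K27ac-only sequence 25% and ETS motifs 31.7%. On autosomes 32.5% of coding genes had a start in a member. Starts of all annotated genes lay in 95.5% of members. A lower H3K27ac score at normoxia was found in 16.8% with a step of 20 and in 24.0% without top scores. In the longer promoter window 43.0% held an ETS motif. No paired analysis was possible because each list pools both libraries of its group, and for the same reason no replicate could be left out. Read depth, input signal and replicate spread limit every comparison of the oxygen levels and are unknown here. Since the definition of the score is not stated, a lower score cannot be read as less acetylation.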

Other observations

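The 296 members without any start in the basic annotation were not uniform. A start in the full GENCODE M21 annotation lay in 84 of them (28.4%), which left 212 (3.23% of all members) with none. Of the 296, 155 (52.4%) overlapped a coding gene and 141 (47.6%) lay between coding genes, and the median distance to the nearest coding start was 14920 bp. Their median CpG ratio was 0.504 and their median H3K27ac scores were 130 at hypoxia and 116.5 at normoxia. An H3K4me3 score under 100 was found in 65 of them (22.0%) and in 160 (2.43%) of all members. The widest without a start in the full annotation, chosen after its values were seen, was an interval of 4500 bp inside Tns3, which encodes a focal adhesion protein (chr11:8621501-8626000), with scores of 110 and 98.

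More than 1 member held a start of the same gene in 100 cases: 99 genes had starts in 2 members, and Dst, which encodes a cytoskeletal linker with many isoforms, had starts in 3.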
